A study of Mus musculus with 2 samples.

Results

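CD8 T cells that carried mRNA of checkpoint receptors were described in tumor-infiltrating cells of mice with orthotopic pancreatic tumors. The cells were chosen by measured values. Barcodes entered with 1000 or more unique molecular identifiers (UMIs, each standing for 1 captured mRNA molecule), 200 or more genes and no more than 20% of UMIs from mitochondrial genes. A CD8 T cell then needed at least 2 UMIs of Cd3e, Cd3d, Cd3g, Trac and Trbc2 together, at least 1 UMI of Cd8a and Cd8b1, and 0 of Cd4. It also needed 0 UMIs of Cd79a and C1qa and less than 3% of its UMIs from S100a8 and S100a9. Of 14022 kept barcodes, 533 passed as CD8 T cells. Of these, 114 had at least 2 UMIs of Pdcd1, Lag3, Havcr2 and Tigit together and are called receptor-positive cells here. The other 419 CD8 T cells, with fewer than 2 such UMIs, served for comparison.

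Tumors were grown from K210 cells, derived from a pancreatic tumor of a mouse whose engineered alleles, Trp53 fl/fl among them, are recombined by Pdx1-Cre, active in the pancreas, in the pancreas of male C57BL/6J mice aged 5 to 6 weeks. Mice received PBS or cmExoaCD11b by intraperitoneal injection. cmExoaCD11b are exosomes of mouse embryonic fibroblasts that hold IL-12 mRNA and the STING agonist 2′3′-cGAMP (5 µg per mouse) and carry an antibody against the myeloid surface protein CD11b. Tumors of 3 mice per treatment were pooled after 48 h and sequenced as 1 droplet library, so cells of different mice cannot be told apart and no difference between treatments has a replicate check. In total 67143628 UMIs on 644248 barcodes were listed for PBS and 81288480 UMIs on 723594 barcodes for cmExoaCD11b. The kept barcodes numbered 6904 in PBS and 7118 in cmExoaCD11b, of which 15 barcode sequences occurred in both libraries, but 0 of the CD8 T cells shared one.

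PD-1 (Pdcd1), LAG-3, TIM-3 (Havcr2) and TIGIT are inhibitory receptors that T cells place on their surface after activation. Ligands on tumor, stromal and myeloid cells engage them and restrain signals from the T cell receptor. CD8 T cells that see antigen for long in a tumor keep several of these receptors together with the transcription factor Tox, while cells that keep Tcf7 retain the capacity to renew.

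All values below are sums over cells of 1 library. A level is given as CPM, the UMIs of a gene divided by all UMIs of the class and scaled to 1e6, with an exact Poisson 95% interval. Shares of cells have exact Clopper-Pearson 95% intervals, while for a share of 0 the limit given is 3 cells of the total, lower than the upper end of that interval, and ratios of CPM, computed with 1 UMI added to each count, have exact conditional 95% intervals. All intervals cover counting error only. Since cells are not replicates, no test was run, and "higher" or "lower" refers to the values themselves.

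Receptor-positive cells were 35 of 143 CD8 T cells in PBS (24.5%, 17.7 to 32.4) and 79 of 390 in cmExoaCD11b (20.3%, 16.4 to 24.6), intervals that overlapped. As a share of all gated T cells they were 8.56% of 409 and 8.05% of 982. As a share of all kept barcodes they were 0.507% and 1.11%. CD8 T cells as a whole were 143 of 6904 and 390 of 7118 kept barcodes. The same receptor threshold was passed by 15.1% of CD4 T cells in PBS and 15.5% in cmExoaCD11b. It was passed by 0.862% and 1.22% of B cells and by 0.933% and 1.19% of neutrophils, cells that should lack these receptors.

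Receptor-positive cells were deeper than the other CD8 T cells. They held a median of 6165 UMIs in PBS and 6764 in cmExoaCD11b, against 5077 and 3877 in the other CD8 T cells, 5091 and 7011 in B cells and 5506 and 7662 in neutrophils. When every CD8 T cell was thinned to 1000 UMIs, 6 of 143 (4.20%) and 13 of 390 (3.33%) still had 2 receptor UMIs, while 0 of 232 and 0 of 327 B cells did (3 cells, the limit that a count of 0 allows, would be 1.29% and 0.917%). Most receptor-positive cells could therefore not be told from the others at that depth. Cells at the threshold were common: 10 in PBS and 32 in cmExoaCD11b had exactly 2 receptor UMIs, and 28 and 64 CD8 T cells just outside had 1.

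Receptor UMIs were spread unevenly among the cells. In PBS, 9 cells had 10 or more and held 65.4% of all receptor UMIs of the receptor-positive cells, with a maximum of 39 in a cell. In cmExoaCD11b, 6 cells had 10 or more and held 20.4%, with a maximum of 13. The median was 3 in both libraries.

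**Figure D1:**
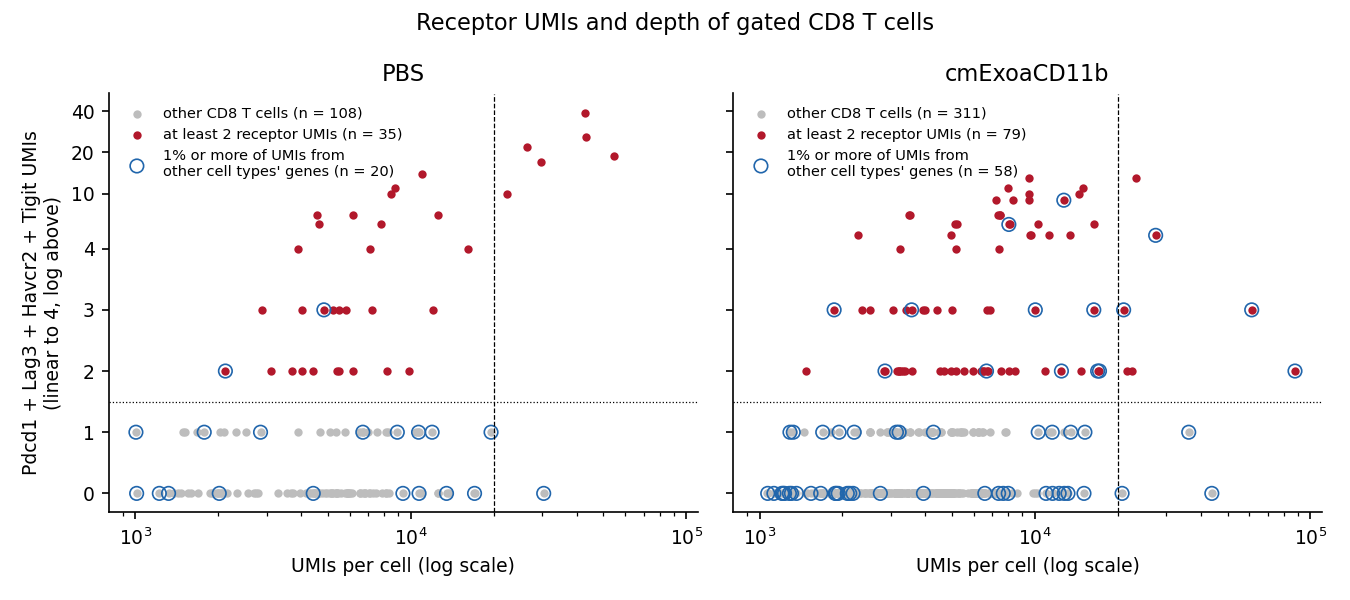
Each point is a CD8 T cell, placed by its UMIs (x axis, log scale) and its UMIs of the 4 checkpoint receptors (y axis, linear to 4 and logarithmic above), with a dotted line at the threshold and a dashed line at 20000 UMIs. The 6 PBS cells beyond the dashed line with 10 to 39 receptor UMIs have no ring, whereas 4 of the 7 cmExoaCD11b receptor-positive cells there are ringed, that is, 1% or more of their UMIs came from marker genes of other cell types.

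Cells of 2 kinds weighed on the sums. Values are over all cells unless it is said that cells of one kind were left out. The first are cells with over 20000 UMIs. In PBS, 6 such receptor-positive cells held 53.5% of the UMIs of their class, and in cmExoaCD11b 7 cells held 34.3%. In the other CD8 T cells 1 and 3 cells held 4.90% and 6.99%. The second are mixed cells, in which 1% or more of UMIs came from lists of myeloid, neutrophil, B and plasma, epithelial, stromal and erythroid genes. They were 2 of 35 receptor-positive cells in PBS and 15 of 79 in cmExoaCD11b, with 1.70% and 39.6% of the class's UMIs, and 18 of 108 and 43 of 311 of the other cells. The summed level of the 14 myeloid markers was 488 CPM in receptor-positive cells of PBS, led by Apoe with 2 of the 14 at 0, and 3990 CPM in cmExoaCD11b, led by Lyz2 with 0 at 0. Without mixed cells these sums were 461 and 815 CPM. The summed level of the 14 neutrophil markers was 1477 and 6587 CPM, and without mixed cells 1354 and 2066. The 14 B and plasma cell markers summed to 353.5 and 865 CPM and the 12 epithelial, stromal and erythroid markers to 46.3 and 40.1 CPM, led by Pecam1. Both limits were chosen after the data had been seen.

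Among the 4 receptors, Pdcd1 was the most widely found. It had a UMI in 26 of 35 receptor-positive cells in PBS and 49 of 79 in cmExoaCD11b, at 349 CPM (294 to 411) and 201 CPM (170 to 235), and at 288 CPM in both libraries when cells over 20000 UMIs were left out. Havcr2 was found in 17 and 40 cells, at 129 and 124 CPM. Lag3 was found in 18 and 29 cells, at 99.95 and 60.9 CPM. Tigit was found in 14 and 28 cells, at 48.8 and 46.6 CPM. These levels chose the cells and are no evidence of a difference from the others, which held 14.5 and 13.9 CPM of Pdcd1. A single receptor gene was found in 7 of 35 cells in PBS and 27 of 79 in cmExoaCD11b, and the rest carried 2 or more. Havcr2 was the only one in 0 and 8 cells. In the mixed cmExoaCD11b cells of 27419 and 20981 UMIs, Havcr2 gave all 5 and 3 receptor UMIs. These cells held 114 and 107 Lyz2 UMIs, and the part of myeloid mRNA in their Havcr2 counts was not tested. The other mixed receptor-positive cells over 20000 UMIs also had Lag3 or Pdcd1. Pdcd1 and Lag3 met in 15 and 16 cells, and Pdcd1 and Havcr2 in 14 and 21. All 4 receptors were found in 1 and 3 cells.

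The label was checked against Tnfrsf9 and Xcl1, markers that the rule did not use although they were counted in the same cells. Tnfrsf9 (4-1BB), a costimulatory receptor that appears on T cells after antigen contact, stood at 668 CPM (591 to 752) in receptor-positive cells of PBS against 54.9 in the other CD8 T cells, a ratio of 11.9 (8.50 to 17.9). In cmExoaCD11b it stood at 303 CPM (265 to 344) against 55.5, a ratio of 5.42 (4.22 to 7.13). It was found in 19 of 35 and 36 of 79 receptor-positive cells, in 15 and 25 of them together with Pdcd1. Without cells over 20000 UMIs the ratios were 7.72 and 7.97. After thinning to 1000 UMIs, 31.4% of receptor-positive cells in PBS had a Tnfrsf9 UMI (16.9 to 49.3) against 6.48% of the other CD8 T cells and 0.431% of B cells, and in cmExoaCD11b 17.7% against 5.47% and 0 of 327 B cells, which allows a share of up to 0.917%. At equal depth Tnfrsf9 thus remained more frequent in receptor-positive cells of both libraries.

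Tnfrsf9 levels followed the number of receptor UMIs. In PBS the level was 53.0 CPM in CD8 T cells with 0 receptor UMIs, 59.9 with 1 and 57.3 with 2, then 188 with 3 or 4 and 907 with 5 or more. In cmExoaCD11b the steps were 52.0, 66.7, 130, 134 and 607 CPM. PBS cells just inside the threshold were therefore level with those just outside it, and the level was higher in cells with 3 or more receptor UMIs.

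Xcl1, a chemokine that draws cross-presenting dendritic cells, rested on few cells. It was found in 10 of 35 and 13 of 79 receptor-positive cells, at 1543 CPM in PBS against 115 in the other cells (ratio 13.3, 10.5 to 17.5) and 275 CPM in cmExoaCD11b against 96.4 (ratio 2.84, 2.29 to 3.55). A single PBS cell gave 45.7% of the UMIs. Without cells over 20000 UMIs the levels were 414 and 384 CPM and the ratios 3.43 and 3.70. Xcl1 did not follow the number of receptor UMIs. In PBS it stood at 141 CPM in CD8 T cells with 0, 41.9 with 1, 19.1 with 2, 402 with 3 or 4 and 2125 with 5 or more, and in cmExoaCD11b at 59.3, 215, 419, 0 and 277 CPM, with 135 of its UMIs in cells with exactly 2. In receptor-positive CD4 T cells Xcl1 stood at 18.1 and 30.5 CPM, and in natural killer cells, a known source, at 616 and 457.

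Across all genes, 6387 had at least 20 UMIs in the CD8 T cells of each library once the genes of the rule were set aside. Of these, 107 (1.68%) were at least 2-fold higher in receptor-positive cells of both libraries and 77 (1.21%) at least 2-fold lower. Because the same cells' counts chose the classes, these shares are a description. Without cells over 20000 UMIs, 47 of 5503 genes (0.854%) were higher and 23 (0.418%) lower, and without mixed cells 135 and 72 of 5718. The median log2 ratio over all 6387 genes was 0.00 in both libraries.

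Ranked by the smaller of their 2 ratios, the top 15 genes were Nrn1, Nrgn, Ccl1, Areg, Tnfsf4, Atp2b2, Dscam, Dlg2, Gldc, Unc13b, Myo10, Tnfrsf9, Creb3l2, Galnt3 and Ptprs. Most were rare transcripts of a minority of the cells. Nrn1, which encodes the neuronal surface protein neuritin, was found in 6 of 35 receptor-positive cells in PBS and 12 of 79 in cmExoaCD11b, and in 0 of the 419 other CD8 T cells. Its level was 107 and 41.4 CPM, at least 22.1-fold and 19.9-fold higher against a floor of 3 UMIs per class. Nrgn, which encodes the calmodulin-binding protein neurogranin, was found in 12 and 13 receptor-positive cells and in 2 and 0 of the others, at 263 and 80.3 CPM. Gldc, a mitochondrial enzyme that cleaves glycine, was found in 12 and 10 cells and in 0 and 4 of the others. Tnfsf4, the ligand of OX40, was found in 7 and 5 cells, with 68.4% of the PBS UMIs in a single cell, and its PBS ratio of 49.8 became 3.09 without cells over 20000 UMIs.

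At the other end, the 15 lowest genes were Hdc, Trat1, Fgf13, Jchain, Gab3, Lef1, Cmah, Tespa1, Aff3, S1pr1, Unc5cl, Lcn4, Cpm, Tcf7 and Slamf6. Tcf7, Lef1, S1pr1 and Slamf6 belong to naive and memory cells and are described with their list. Trat1, an adaptor that stabilizes the T cell receptor complex, had ratios of 0.151 and 0.160. Hdc, which makes histamine and is abundant in neutrophils, had 0.156 and 0.154, and 0.577 and 0.640 without mixed cells, and Jchain, of plasma cells, was likewise a marker of another cell type.

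The other inhibitory receptors did not move as a group. Of 13 listed, 11 had enough UMIs. In both libraries 1 was at least 2-fold higher, against 1.68% of all genes, and 0 lower, against 1.21%. The median log2 ratio was 0.22 in PBS and 0.04 in cmExoaCD11b. The gene that was higher was Ctla4, a receptor that competes with Cd28 for its ligands. It stood at 266 CPM against 32.3 in PBS (ratio 7.91, 5.08 to 14.0) and 174 against 79.1 in cmExoaCD11b (ratio 2.19, 1.70 to 2.84). Both held without cells over 20000 UMIs, at 8.38 and 2.62. Cd160, Cd96 and Entpd1 (CD39, which degrades extracellular ATP) had ratios of 0.959, 0.915 and 1.67 in PBS and 0.663, 0.646 and 0.977 in cmExoaCD11b. Cd200 stood at 70.7 against 8.07 CPM in PBS and at 2.59 against 2.77 CPM in cmExoaCD11b, a difference between the libraries that was not tested.

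Among 14 costimulatory receptors, 11 had enough UMIs. Tnfrsf9 alone was at least 2-fold higher in both libraries, against 1.68% of all genes, and 0 were lower, against 1.21%. The medians were -0.05 and 0.06. Tnfrsf4 (OX40), which fell below the limit of UMIs, stood at 105 against 4.84 CPM in PBS and 18.1 against 2.08 CPM in cmExoaCD11b, in 11 and 5 cells, and its PBS ratio of 16.6 became 10.04 without cells over 20000 UMIs. Cd28 and Icos were close to level, with ratios of 0.969 and 0.982 in PBS and 1.04 and 1.31 in cmExoaCD11b. Tnfrsf18 (GITR) had ratios of 2.29 (1.43 to 3.80) and 1.41 (0.951 to 2.07).

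Of 21 transcription factors of exhausted and effector cells, 20 had enough UMIs. Tox and Irf8 alone were at least 2-fold higher in both libraries, against 1.68% of all genes. The lower genes were 0, against 1.21% of all genes, and the medians were 0.22 and 0.09. Tox, which is needed for the exhausted state, stood at 539 CPM (470 to 615) against 152 in PBS and 404 CPM (360 to 451) against 201 in cmExoaCD11b. The ratios were 3.53 (2.78 to 4.57) and 2.01 (1.71 to 2.37), and 3.58 and 2.66 without cells over 20000 UMIs. Tox was found in 23 of 35 and 48 of 79 cells. After thinning, 31.4% and 36.7% of receptor-positive cells had a Tox UMI, against 12.04% and 15.1% of the others and 0.862% and 0.306% of B cells, with intervals that overlapped between the classes in PBS (16.9 to 49.3 and 6.57 to 19.7) and not in cmExoaCD11b (26.1 to 48.3 and 11.3 to 19.6). By receptor UMIs, Tox stood in PBS at 75.1 CPM in CD8 T cells with 0, 359 with 1, 287 with 2, 255 with 3 or 4 and 660 with 5 or more. In cmExoaCD11b the same classes stood at 120, 458, 149, 436 and 679 CPM. The levels did not follow the number of receptor UMIs step by step, and cmExoaCD11b cells just inside the threshold lay below those just outside it.

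Irf8 had ratios of 8.49 (5.15 to 16.7) and 2.62 (1.82 to 3.85), and 34.6 and 3.29 without mixed cells. Its related family member Irf4 had 1.91 and 0.507. The Nr4a family did not move together. Nr4a1 and Nr4a3, immediate targets of T cell receptor signals, had lower summed levels in receptor-positive cells, with ratios of 0.411 and 0.527 in PBS and 0.840 and 0.676 in cmExoaCD11b, and without cells over 20000 UMIs all 4 ratios lay between 0.744 and 0.962. The share of cells with a UMI did not follow for Nr4a3, which was found in 50.6% of receptor-positive cells of cmExoaCD11b against 31.2% of the others, and after thinning in 17.7% against 12.5%, and 8.57% against 8.33% in PBS. The thinned shares of Nr4a1 were 8.57% against 23.1% in PBS and 22.8% in both classes of cmExoaCD11b. Nr4a2, the third member, had ratios of 2.20 (1.76 to 2.76) in PBS and 0.881 (0.770 to 1.003) in cmExoaCD11b, and 2.95 and 1.15 without cells over 20000 UMIs. Tbx21 (T-bet) and Eomes, which drive effector genes, had ratios of 0.715 and 1.28 in PBS and 0.444 and 0.463 in cmExoaCD11b. Batf, Prdm1, Nfatc1 and Bhlhe40 had ratios between 0.755 and 1.23.

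**Figure D2:**
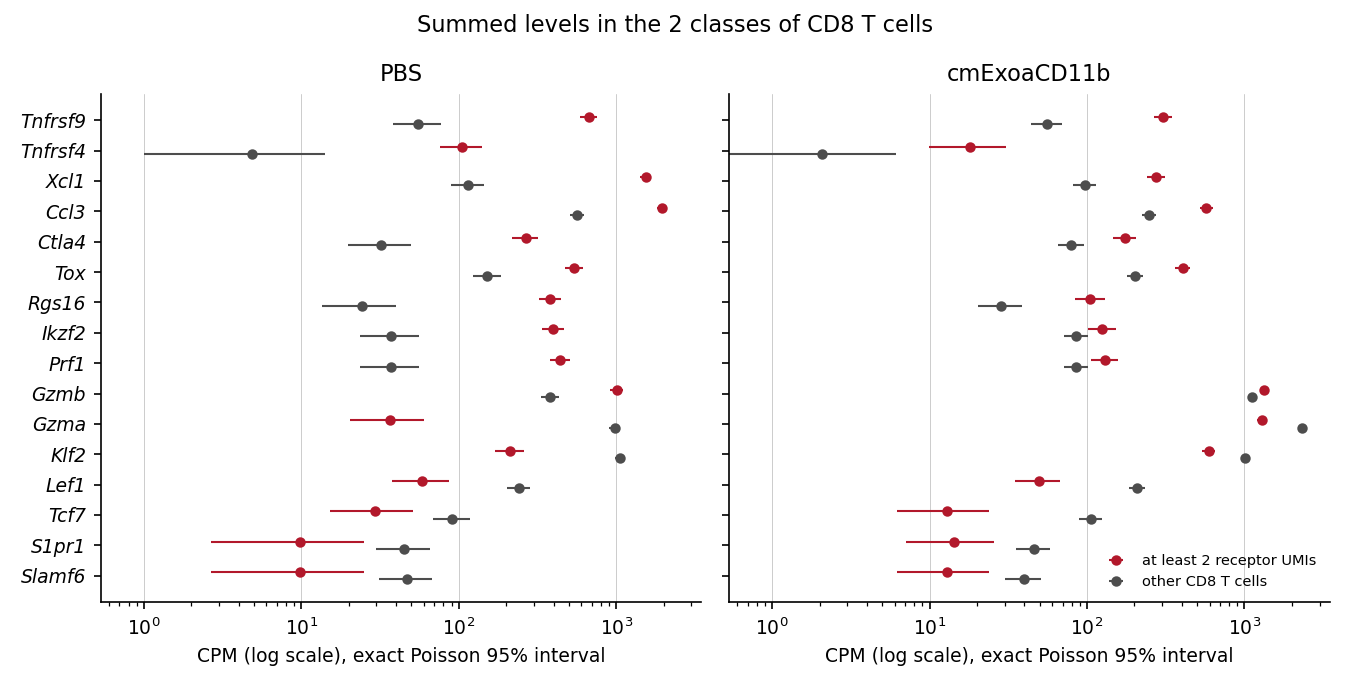
CPM (log scale) of 16 genes summed over receptor-positive cells (red, 35 in PBS and 79 in cmExoaCD11b) and over the other CD8 T cells (grey, 108 and 311), with exact Poisson 95% intervals that cover counting error only. Tnfrsf9, Xcl1, Ccl3, Ctla4, Tox and Rgs16 are to the right in receptor-positive cells of both libraries, and Klf2, Lef1, Tcf7, S1pr1 and Slamf6 to the left.

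Genes of naive and memory T cells were the list with the lowest medians in both libraries among the T cell lists. Of 22 listed, 18 had enough UMIs, 0 were at least 2-fold higher in both libraries and 6 were lower, against 1.21% of all genes, namely Tcf7, Lef1, Slamf6, Satb1, S1pr1 and Id3. The median log2 ratio was -1.44 in PBS and -1.02 in cmExoaCD11b, against 0.00 over all genes, and -0.86 and -0.98 without cells over 20000 UMIs, when 2 of 17 and 0.418% of all genes were lower. Tcf7, the factor of the renewing cells, stood at 29.2 CPM (15.1 to 51.1) against 90.4 in PBS and 13.0 CPM (6.21 to 23.8) against 105 in cmExoaCD11b. It was found in 6 of 35 and 6 of 79 receptor-positive cells. The Tcf7 ratios were 0.344 (0.158 to 0.611) and 0.134 (0.0577 to 0.232), and in PBS 0.552 without cells over 20000 UMIs. Of the cells with Tcf7, 4 in each library also had Pdcd1, and 3 and 1 had Havcr2.

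Lef1, a partner of Tcf7, had ratios of 0.252 and 0.242, and 0.515 and 0.309 without cells over 20000 UMIs. Klf2 and S1pr1, the factor and the receptor through which T cells leave tissues, had ratios of 0.203 and 0.260 in PBS and 0.588 and 0.334 in cmExoaCD11b, and the PBS ratios were 0.361 and 0.426 with those cells left out. Il7r, the receptor for the survival cytokine IL-7, had ratios of 0.769 and 0.383, and with those cells left out the PBS ratio turned to 1.404. Ccr7, which guides cells into lymph nodes, had ratios of 0.363 and 3.42 on 2 and 5 cells, and the PBS ratio was 2.65 without cells over 20000 UMIs.

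Per cell, the naive and memory list took a median of 23.6 UMIs per 10000 in receptor-positive cells of PBS (lowest 1.82, highest 84.7) and 24.0 in those of cmExoaCD11b (2.69 to 95.6). The other CD8 T cells had medians of 33.5 and 36.0, with ranges of 7.58 to 138.8 and 0 to 190.9. The ranges overlapped throughout, and it was the middle of the distribution that lay lower.

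Cytotoxic granule genes were not higher as a list. Of 19 listed, 13 had enough UMIs, and the medians were 0.26 and 0.11. In both libraries 0 were 2-fold higher, against 1.68% of all genes, and 0 lower, against 1.21%. At least 2 granzyme UMIs were found in 62.9% of receptor-positive cells in PBS and 79.7% in cmExoaCD11b, against 56.5% and 68.5% of the other CD8 T cells and 0% (0 of 232, which allows up to 1.29%) and 0.306% of B cells. After thinning, the shares were 28.6% and 44.3% against 25.9% and 50.8%.

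Single granzymes differed in where they were found. Gzmb, the main granzyme of effector cells, stood at 1007 against 381 CPM in PBS, but 76.0% of those UMIs came from a single cell, and without cells over 20000 UMIs the ratio of 2.64 became 0.821 (1007 CPM became 325). In cmExoaCD11b it stood at 1334 against 1119 CPM (ratio 1.19, 1.10 to 1.29). Gzma stood at 36.6 against 977 CPM in PBS (ratio 0.0399, 0.0208 to 0.0623, and 0.0816 without cells over 20000 UMIs) and 1286 against 2334 CPM in cmExoaCD11b (ratio 0.551, 0.513 to 0.592). Prf1 (perforin, which opens the target cell membrane) had ratios of 11.4 (7.68 to 19.2) and 1.52 (1.15 to 1.99), and of 6.18 (3.76 to 10.9) and 1.30 (0.931 to 1.77) without cells over 20000 UMIs. In PBS, Prf1 stood at 13.4 CPM in cells with 3 or 4 receptor UMIs, below the 33.2 CPM of cells with 0, and at 628 CPM in cells with 5 or more. The ratios of Gzmk were 0.918 and 0.663, and the PBS ratio turned to 1.26 with the deep cells left out. Gzmc and Gzmf came almost wholly from the PBS cell with most Gzmb UMIs, which held 95.8% and 97.3% of their UMIs in the class. Granzymes C to F are close copies of each other, so that counts may be split among them.

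Among 20 cytokines and chemokines, 14 had enough UMIs. Xcl1, Ccl1, Ccl3 and Areg were at least 2-fold higher in both libraries, 4 of 14 against 1.68% of all genes, and Ccl5 was lower, 1 of 14 against 1.21%. Ccl3, a chemokine that attracts myeloid and T cells, stood at 1960 against 565 CPM and 571 against 248 CPM (ratios 3.46, 3.06 to 3.95, and 2.31, 2.001 to 2.66). Without cells over 20000 UMIs the PBS level was 1064 CPM and the ratios 2.07 and 2.52. Without mixed cells the ratios were 8.69 and 1.42, and in cells of 3000 to 12000 UMIs 3.02 and 1.12. Ccl3 did not follow the number of receptor UMIs: in cmExoaCD11b cells with 5 or more had 187 CPM, below the 283 CPM of cells with 0, while in PBS they had 2760 against 566 CPM. The related Ccl4 had ratios of 1.09 and 0.917, and of 1.24 and 1.18 without cells over 20000 UMIs. Ccl5 stood at 6077 against 12210 CPM and 7894 against 16330 CPM. In PBS the Ccl5 ratio of 0.498 became 0.953 without cells over 20000 UMIs. Ccl1, a ligand of Ccr8, was found in 7 and 5 cells, and Areg, a growth factor of the EGF family, in 3 and 6. Ifng had ratios of 2.18 (1.84 to 2.59) and 1.06 (0.939 to 1.19). The PBS ratio of Ifng became 1.38 without cells over 20000 UMIs, 1.78 without mixed cells and 5.51 without dividing cells, so its size depended on the cells counted. Tnf had ratios of 0.192 and 0.584.

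The receptor for IL-12, whose mRNA the exosomes hold, was found in a minority of the cells. Its chains Il12rb1 and Il12rb2 stood at 31.7 and 126.8 CPM in receptor-positive cells of PBS and 23.3 and 111.4 CPM in those of cmExoaCD11b. Ratios to the other cells were 2.64 (1.04 to 8.30) and 0.899 in PBS and 1.18 and 0.749 in cmExoaCD11b. Over the list of 19 cytokine receptors, 16 had enough UMIs. In both libraries 0 were 2-fold higher or lower, against 1.68% and 1.21% of all genes.

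Of 22 genes of chemokine receptors, adhesion and residency, 18 had enough UMIs. In both libraries 1 was at least 2-fold higher, against 1.68% of all genes, and 1 lower, against 1.21%. Rgs16, a brake on G protein-coupled receptors, was at least 2-fold higher in both libraries (380 against 24.2 CPM and 105 against 28.4 CPM), and its PBS ratio of 14.8 became 9.46 without cells over 20000 UMIs. Its level was 533 and 252 CPM in cells with 5 or more receptor UMIs, but 0 and 24.9 CPM in cells with 2, against 33.2 and 23.7 CPM in cells with 0. Cxcr3, which follows interferon-induced chemokines, was lower (ratios 0.318 and 0.394). Cxcr6 had ratios of 1.07 and 1.36, and Cd69 0.259 and 0.510. Of 25 negative regulators of signalling, 23 had enough UMIs. In both libraries 0 were 2-fold higher or lower, against 1.68% and 1.21% of all genes. Of 16 genes of T cell receptor signalling, 13 had enough UMIs. Nfatc2 alone was 2-fold lower in both (0.465 and 0.431), against 1.21% of all genes.

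**Figure D3:**
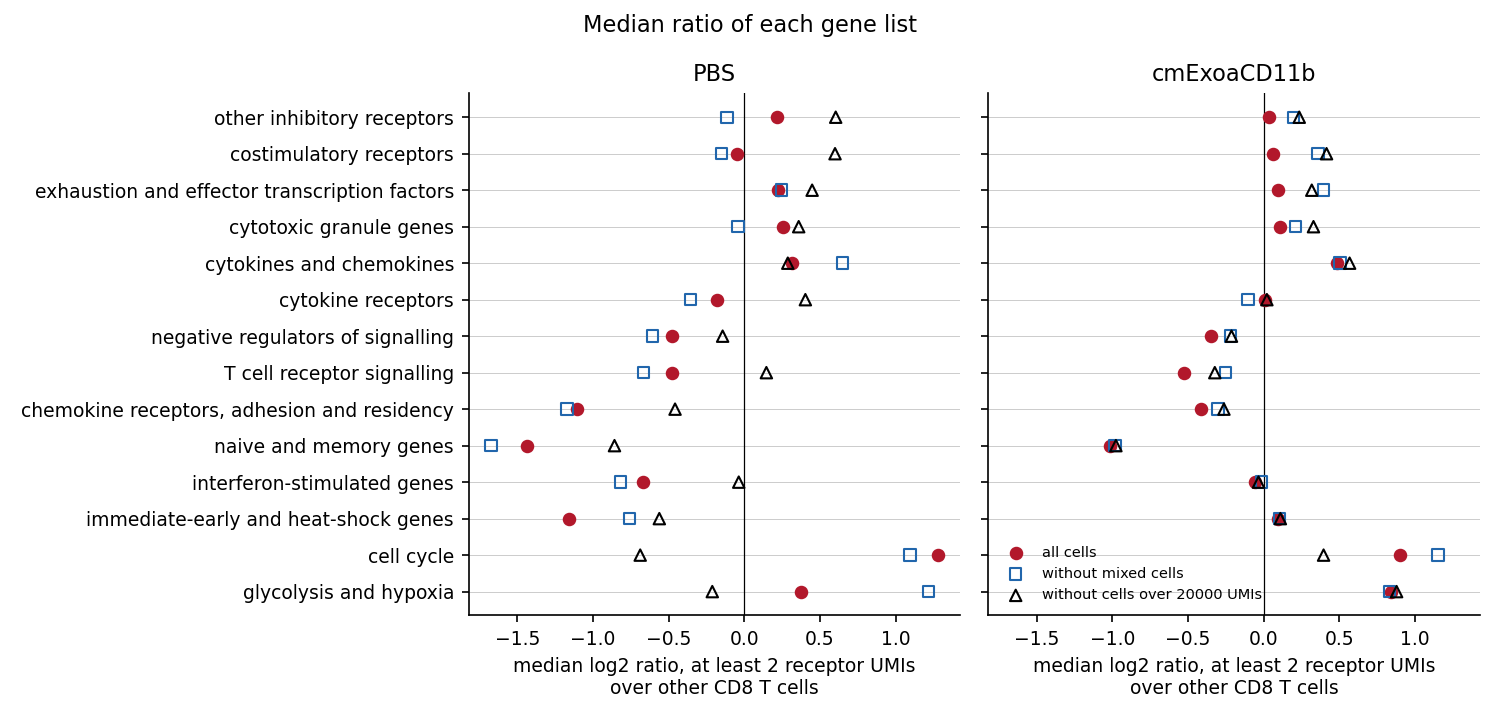
Median log2 ratio of receptor-positive over other CD8 T cells for the genes of each list with enough UMIs (x axis), with all cells (filled circles), without mixed cells (squares) and without cells over 20000 UMIs (triangles). The naive and memory list lies below 0 under all 3 choices in both libraries, while without cells over 20000 UMIs the cell cycle list changes sign in PBS, from 1.28 to -0.69, and the glycolysis list from 0.37 to -0.21.

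Cell cycle genes had high medians in both libraries with all cells counted. Of 35 listed, 34 were in the data and 29 had enough UMIs. Of these, 10 were at least 2-fold higher in both libraries, among them Dut, Stmn1, Ube2c, Birc5 and Cdk1, against 1.68% of all genes, and 0 lower, with medians of 1.28 and 0.90. When cells over 20000 UMIs were left out, 1 of 22 was higher, against 0.854% of all genes, and the medians were -0.69 and 0.40, so the direction in PBS rested on those 6 cells. By the share of cells with at least 2 UMIs of 7 division genes, 28.6% (14.6 to 46.3) and 29.1% (19.4 to 40.4) of receptor-positive cells were dividing, against 9.26% (4.53 to 16.4) and 12.9% (9.35 to 17.1) of the others. After thinning, with a looser limit of at least 1 UMI of these genes, the shares were 20% and 17.7% against 9.26% and 10.6%, with overlapping intervals. Mki67 had ratios of 0.957 and 1.87, and 0.618 and 1.24 without cells over 20000 UMIs.

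Glycolysis and hypoxia genes had a median log2 ratio of 0.84 in cmExoaCD11b and 0.37 in PBS. The PBS median was -0.21 without cells over 20000 UMIs, 1.22 without mixed cells and 0.22 without either, and the summed level of the list in the other CD8 T cells of PBS was 5428 CPM with all cells and 3435 CPM without mixed cells. Of 19 genes with enough UMIs, Tpi1 alone was at least 2-fold higher in both libraries, against 1.68% of all genes. Without mixed cells 6 of 15 were, against 135 of all 5718 genes. Gapdh stood at 3096 against 1696 CPM and 2100 against 991 CPM, and its PBS ratio of 1.83 became 1.07 without cells over 20000 UMIs. Per cell, the list took a median of 39.5 UMIs per 10000 in receptor-positive cells of PBS and 34.1 in those of cmExoaCD11b, against 27.3 and 21.6 in the other cells. Without mixed cells these medians were 39.5 and 26.9 against 25.98 and 21.5. In cells of 3000 to 12000 UMIs the median log2 ratio of the list was 0.20 in PBS and 0.27 in cmExoaCD11b, both below the values over all cells.

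**Figure D4:**
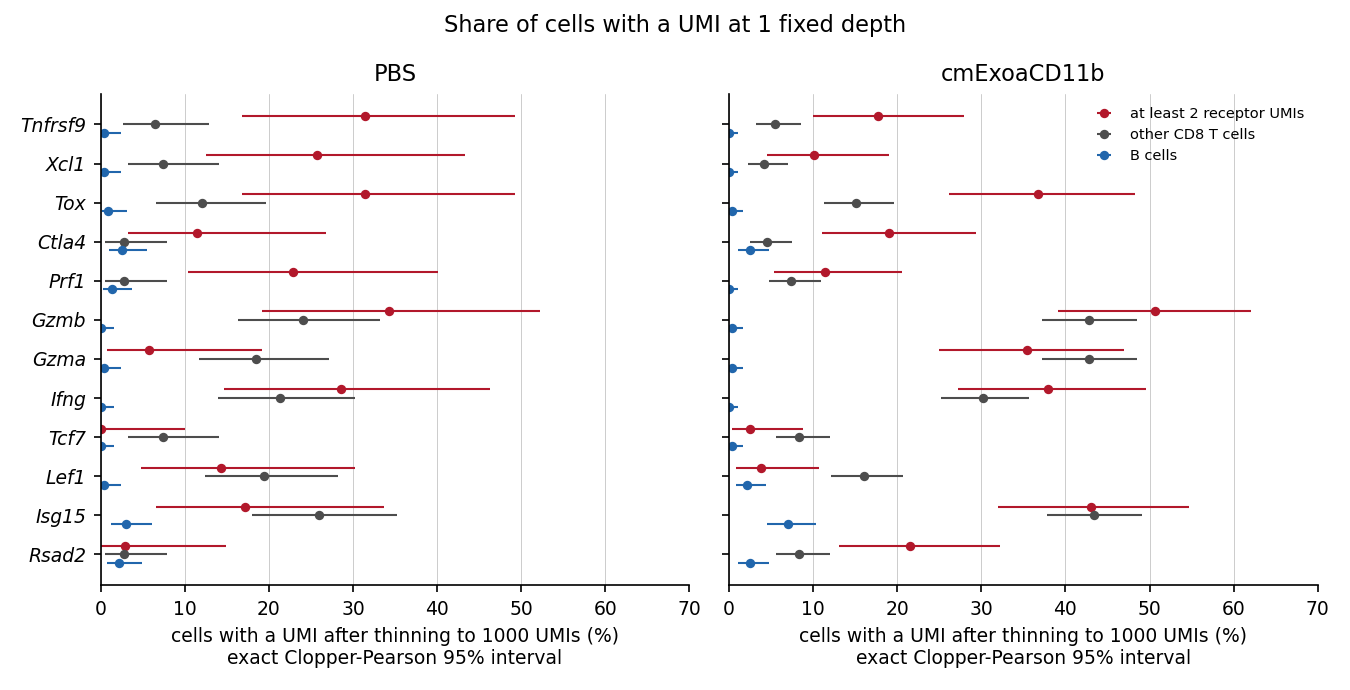
Percent of cells with at least 1 UMI after each cell was thinned to 1000 UMIs, in receptor-positive cells (red), the other CD8 T cells (grey) and B cells (blue, the background), with exact Clopper-Pearson 95% intervals. The Tnfrsf9 intervals of the 2 classes of CD8 T cells lie apart in both libraries. Those of Prf1 lie apart in PBS and those of Tox, Ctla4, Lef1 and Rsad2 in cmExoaCD11b. All other intervals of the 2 classes overlap, among them Tox in PBS and Gzmb and Ifng in both libraries.

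Markers of other lymphocytes were checked in the same way. In receptor-positive cells Foxp3 and Ncr1 were at 0 in both libraries, and Klrb1c was at 0 in PBS and 1.29 CPM in cmExoaCD11b. The summed level of the 15 markers of natural killer and innate-like T cells was 948 CPM in PBS, led by Klrd1, and 2469 CPM in cmExoaCD11b, led by Gzma, against 2232 and 3481 CPM in the other CD8 T cells, led by Gzma. Of the markers of regulatory and helper CD4 T cells, 4 of 9 had enough UMIs. Ctla4 alone was at least 2-fold higher in both libraries, against 1.68% of all genes. The summed level of the 9 was 768 and 377 CPM, against 145 and 261 CPM in the other cells. It was led by Ikzf2 in PBS, where 1 cell gave 50.9% of its UMIs. In CD4 T cells with at least 2 receptor UMIs, 21 and 39 cells, Tox stood at 241 and 721 CPM, Tnfrsf9 at 48.3 and 150 CPM and Gzmb at 6.03 and 457 CPM.

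The second comparison was of the treatments within receptor-positive cells. Of 6899 genes with at least 20 UMIs in these cells, 1021 (14.8%) were at least 2-fold higher in cmExoaCD11b and 469 (6.8%) at least 2-fold lower. In the larger class of other CD8 T cells, 274 and 202 of the same genes differed that far. Without mixed cells the counts were 723 (12.3%) and 385 (6.57%) of 5861 genes. The part of class size, depth and mixed cells in these counts was not tested, and neither has a replicate behind it.

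By the rule for named genes, the 10 genes highest in cmExoaCD11b were Ctsg, Ms4a3, Prtn3, Cybb, Elane, Mmp8, Saa3, Arhgap24, Tgfbi and Ifi204. Several of these are granule genes of neutrophil precursors or genes of myeloid cells. A single receptor-positive cell of 87886 UMIs gave 99.3% of Ctsg, 97.3% of Ms4a3, 93.9% of Prtn3 and 98.4% of Elane UMIs. All 10 of the neutrophil markers with enough UMIs and all 10 of the myeloid markers were at least 2-fold higher, against 14.8% of all genes. Without mixed cells 2 of 7 and 4 of 7 were, against 12.3% of all genes, and 1 of the 7 myeloid markers was at least 2-fold lower. With mixed cells left out, the 10 highest were Mmp12, Gzma, Ifit2, Rsad2, Ifi213, Ndrg1, Ifit3, Btaf1, Plin2 and Thbs1, of which Mmp12 had 99.2% of its UMIs in a single cell.

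Gzma, a granzyme of effector and natural killer cells, separated the libraries in many cells. It was found in 5 of 35 receptor-positive cells in PBS and 39 of 79 in cmExoaCD11b, at 36.6 CPM (20.5 to 60.3) and 1286 CPM (1207 to 1368). The ratio was 33.0 (21.2 to 63.1), and 18.1 without cells over 20000 UMIs. In the other CD8 T cells the level was 977 and 2334 CPM, a ratio of 2.39 (2.19 to 2.61). After thinning, 5.71% and 35.4% of receptor-positive cells had a Gzma UMI, against 18.5% and 42.8% of the others and 0.431% and 0.306% of B cells. In cmExoaCD11b, 32 of the 39 cells with Gzma also had Gzmb.

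The 10 genes lowest in cmExoaCD11b were Gzmf, Gzmc, Gm156, Tnfsf4, Xcl1, Tnfrsf4, Serpine2, Tyms, Rgs16 and Gart. When cells over 20000 UMIs were left out, 3 of them turned, with ratios of 1.88 for Gzmc, 4.01 for Tnfsf4 and 1.07 for Serpine2, while Gm156 stood at 0.104 and Tyms and Gart at 0.752 and 0.501. Xcl1, Tnfrsf4, Rgs16 and Tnfsf4 were also higher in receptor-positive than in other CD8 T cells. For the first 3 the treatment ratios were 0.178, 0.181 and 0.277, and 0.921, 0.318 and 0.537 with the deep cells left out. The Tnfrsf9 ratio was likewise 0.454 (0.379 to 0.542), and 0.879 without those cells.

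Interferon-stimulated genes were higher in cmExoaCD11b in receptor-positive cells, as in the other CD8 T cells. They are switched on by type I and type II interferons through transcription factors that bind their promoters and encode antiviral and antigen-presenting proteins. Of 61 listed, 60 had enough UMIs, 46 were at least 2-fold higher, against 14.8% of all genes, and 0 lower, with a median log2 ratio of 1.69 against 0.04 over all genes tested. In the other CD8 T cells 31 of the 60 were that much higher, against 274 of all 6899 genes, with a median of 1.07. Leaving out cells over 20000 UMIs, 36 of 60 were higher in receptor-positive cells, against 9.15% of all genes, with a median of 1.21. In the other cells 33 were, against 186 of all 5233 genes, with a median of 1.14. Without mixed cells, 45 of 57 were higher in receptor-positive cells, against 12.3% of all genes, with a median of 1.96. In the other cells 31 were, against 230 of all 5861 genes, with a median of 1.10. Against the other CD8 T cells, the list had a median log2 ratio of -0.67 in PBS and -0.06 in cmExoaCD11b, and of -0.04 and -0.03 when cells over 20000 UMIs were left out.

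Single genes of the list had a UMI in a minority of the receptor-positive cells of PBS. Isg15, a ubiquitin-like modifier, stood at 166 CPM in PBS (10 of 35 cells) and 714 CPM in cmExoaCD11b (53 of 79 cells). Rsad2 (viperin) stood at 36.6 CPM (3 cells) and 356 CPM (30 cells). Ifit3 stood at 17.1 CPM (5 cells) and 170 CPM (30 cells), and Zbp1 at 29.2 CPM (9 cells) and 201 CPM (43 cells). In the other CD8 T cells the same genes stood at 499, 48.4, 48.4 and 43.6 CPM in PBS and at 969, 214, 202 and 191 CPM in cmExoaCD11b. Without cells over 20000 UMIs, Isg15, Rsad2, Ifit3 and Zbp1 stood at 325, 47.2, 31.5 and 47.2 CPM in receptor-positive cells of PBS and at 834, 429.6, 229 and 231 CPM in those of cmExoaCD11b, so the Isg15 treatment ratio of 4.25 became 2.53. These genes are also active in other cells: Isg15 had a UMI in 15.5% of B cells in PBS and 28.1% in cmExoaCD11b, against 28.6% and 67.1% of receptor-positive cells, and Zbp1 in 15.9% and 42.8% of B cells against 25.7% and 54.4%. Usp18, which limits interferon signals, and Slfn5 were at 0 in receptor-positive cells of PBS and at 71.2 and 101.0 CPM in those of cmExoaCD11b, at least 9.74-fold and 13.8-fold higher.

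Not all members of the list followed. Psmb8 and Psmb9, subunits of the immunoproteasome, had treatment ratios of 0.807 (0.685 to 0.955) and 0.960, and H2-K1, H2-D1 and B2m, which form MHC class I, had 0.951, 0.959 and 1.01. MHC class I genes are similar in sequence, so that counts may be split among them. Those genes were found in 28 or more of the 35 receptor-positive cells in PBS.

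To give the sequence context of these genes, promoters of RefSeq genes (GRCm38.p6, 250 bases before the annotated start) were searched for GAAANNGAAA, the core of the interferon-stimulated response element, on both strands, with overlapping matches counted. Of 61 listed genes, 48 had a window and 25 (52.1%) held a match, against 936 of 27025 genes (3.46%). The stretch around the match is shown for Isg15, Ifit3, Rsad2, Oas1a and Gbp2, which were higher in cmExoaCD11b, and for B2m, which was near level. Each sequence runs 5′ to 3′ along the strand of the gene, with the matched letters in capitals.
Isg15, chr4:156200867-156200916, minus strand: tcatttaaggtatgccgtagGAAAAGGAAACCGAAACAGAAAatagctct
Ifit3, chr19:34583353-34583402, plus strand: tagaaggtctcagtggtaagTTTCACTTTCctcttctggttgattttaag
Rsad2, chr12:26456543-26456592, minus strand: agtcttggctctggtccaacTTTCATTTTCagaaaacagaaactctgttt
Oas1a, chr5:120907526-120907565, minus strand: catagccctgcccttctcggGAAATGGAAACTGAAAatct
Gbp2, chr3:142620584-142620633, plus strand: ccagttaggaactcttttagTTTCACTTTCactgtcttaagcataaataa
B2m, chr2:122147528-122147577, plus strand: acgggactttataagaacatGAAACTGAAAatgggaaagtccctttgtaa
The matches began 78 bases before the start in Isg15, 156 in Ifit3, 120 in Rsad2, 20 in Oas1a, 59 in Gbp2 and 139 in B2m. Oas1a and Gbp2 had treatment ratios of 6.91 (2.92 to 45.2) and 5.13 (2.45 to 19.4), while B2m, with a match of the same pattern, had 1.01. A match is a description of the letters and not a measured site.

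**Figure D5:**
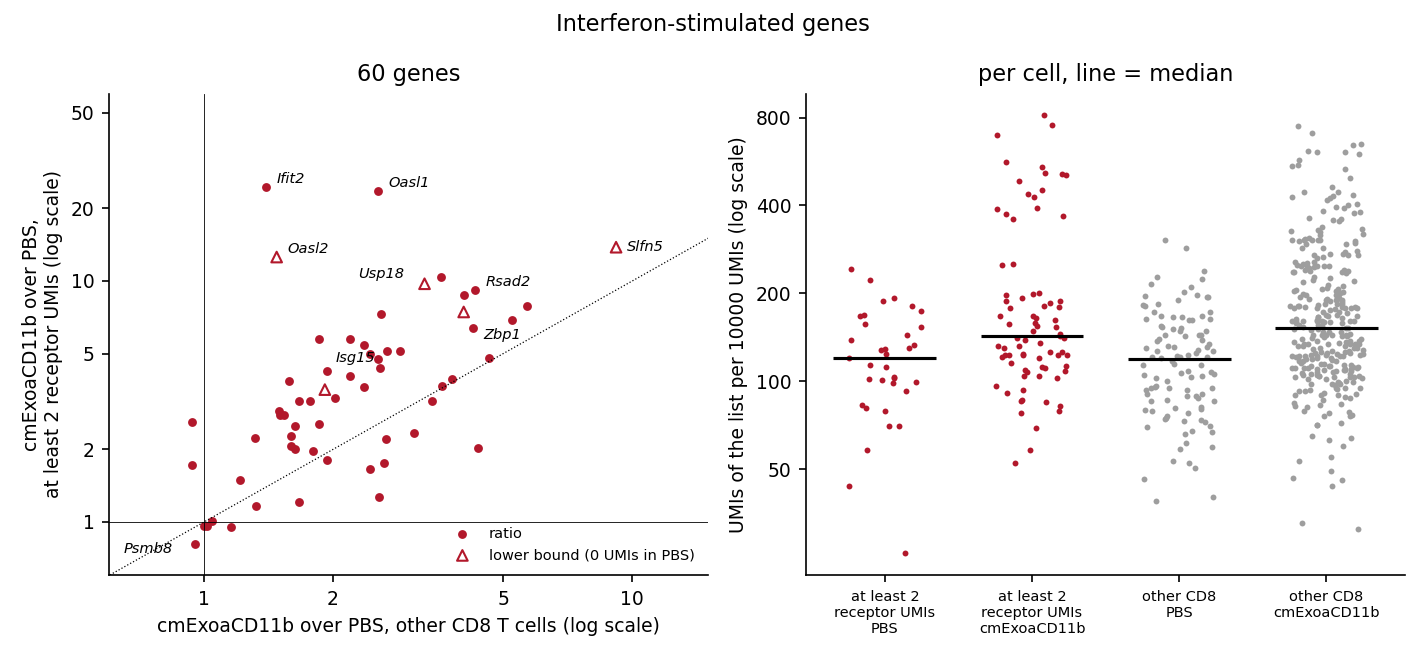
Left, cmExoaCD11b over PBS ratio of 60 interferon-stimulated genes in the other CD8 T cells (x axis) and in receptor-positive cells (y axis), both on log scales, with open triangles for lower bounds and a dotted line of equal ratios. Right, UMIs of the list per 10000 UMIs in each CD8 T cell (log scale) with the median as a line, at 119.7 and 142.6 in receptor-positive cells and 118.9 and 152.4 in the other cells of PBS and cmExoaCD11b.

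Per cell, the list took a median of 119.7 UMIs per 10000 in receptor-positive cells of PBS (lowest 25.7, highest 242.6) and 142.6 in those of cmExoaCD11b (52.5 to 813.9). In the other CD8 T cells the medians were 118.9 (38.8 to 304.2) and 152.4 (31.2 to 750.4). The lower quartile, median and upper quartile of receptor-positive cells were all higher in cmExoaCD11b (112.3, 142.6 and 199.3 against 95.9, 119.7 and 155.3), as they were in the other cells (111.3, 152.4 and 238.1 against 85.8, 118.9 and 153.3). Of the receptor-positive cells of cmExoaCD11b, 17 of 79 (21.5%, 13.1 to 32.2) lay above 304.2, the highest value of the 143 CD8 T cells of PBS, as did 44 of 311 of the other cells (14.1%, 10.5 to 18.5), shares with overlapping intervals. Of these 17 cells, 1 was mixed and 0 had over 20000 UMIs, and their median depth was 3983 UMIs, below the 6764 of their class.

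Of 24 immediate-early and heat-shock genes, 23 had enough UMIs, 11 were at least 2-fold higher in cmExoaCD11b within receptor-positive cells, against 14.8% of all genes, and 0 lower, with a median log2 ratio of 0.97 against 0.03 in the other CD8 T cells. These genes answer to stimulation and to stress, also during tissue digestion. With cells over 20000 UMIs left out, 6 were higher and the median was 0.63, when 479 of all 5233 genes (9.15%) were higher. Against the other CD8 T cells the median was -1.16 in PBS and 0.10 in cmExoaCD11b. Fos, a subunit of the AP-1 factor, stood at 370.5 CPM in PBS and 992 CPM in cmExoaCD11b, and Junb at 585 and 1445 CPM. Per cell the list took a median of 102.2 and 146.0 UMIs per 10000, against 118.6 and 148.1 in the other CD8 T cells. Whether handling of the libraries had a part in this was not tested.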

How the data were processed

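Single-cell suspensions of pooled tumors were sequenced with the 10x 3′ v3.1 chemistry, and the deposited matrices hold counts, that is, the unfiltered UMI counts per gene and barcode that the authors made with Cell Ranger (7.1.0 per the file headers). The genome build was not given in the sources used here. The authors' matrices listed the same 32285 genes in both libraries, and for a repeated symbol the row with more UMIs was used.

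Cells were gated as described, counts were summed per class and library, and ratios were taken with 1 UMI added to each count. Genes needed 20 UMIs in the CD8 T cells of each library, or 20 in receptor-positive cells of both libraries together for the treatment, and the 16 genes of the rule were left out. Shares were repeated after thinning each cell to 1000 UMIs. With 1 library per treatment no test was run and no p-value computed.

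The members and gene lists were chosen with earlier results of these data known. The text names the defining genes of each list and those whose ratio interval excludes 1, the 15 largest and 15 smallest ratios common to both libraries, and the 10 largest and 10 smallest treatment ratios among genes with 50 UMIs. Genes held back from the text are not reported here.

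Doublets were not removed in the main counts. Removal with Scrublet in scanpy 1.11.5 (0.8% expected per 1000 cells, 30 components) was an alternative. It took out 381 and 405 cells by score, 1 and 7 of them receptor-positive, since the automatic threshold called 0 in either library. Other alternatives were the UMI, mitochondrial and receptor limits, cells without markers of other types, thinning, dividing cells left out, gene filters of 10 and 50 UMIs, subtraction of free RNA estimated from barcodes of 10 to 100 UMIs, median-of-ratios scaling and equal weight per cell. The CPM ratio and its interval were tested on simulated counts with known folds, drawn per class without spread between cells. The other steps were not tested in this way. Python 3.11.15, numpy 2.4.6, scipy 1.17.1, pandas 2.3.3 and matplotlib 3.10.9 were used.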

Additional observations from a re-analysis of the deposited data

Results flagged for a closer look

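Within the T cell lists, 4 genes stood 2-fold or more to opposite sides, with and without mixed cells. Their counting intervals over all cells excluded 1. None of these differences was tested, and each compares single libraries. Maf, a transcription factor of regulatory and exhausted T cells, had a ratio of receptor-positive over other CD8 T cells of 0.112 in PBS (0.00142 to 0.354, on 1 UMI in receptor-positive cells) and 8.30 in cmExoaCD11b (4.19 to 22.6). Its treatment ratio was 10.6 in receptor-positive cells and 0.143 in the other CD8 T cells. Egln3, a prolyl hydroxylase induced in hypoxia, had ratios of 0.0731 in PBS (0.00586 to 0.187, on 2 UMIs) and 2.49 in cmExoaCD11b (1.58 to 4.001), and treatment ratios of 8.50 in receptor-positive cells and 0.250 in the other cells.

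Ikzf2 (Helios) and Prf1 had treatment ratios of 0.314 and 0.295 in receptor-positive cells, against 2.22 for each in the other CD8 T cells. A single PBS cell gave 50.9% of the Ikzf2 UMIs and a single PBS cell 39.2% of the Prf1 UMIs. Without cells over 20000 UMIs the ratios in receptor-positive cells were 0.761 and 0.478.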

How the results depend on the processing

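No paired analysis was possible because each treatment had 1 library, and for the same reason no replicate could be left out. Of 107 genes at least 2-fold higher in receptor-positive cells of both libraries, the count was 187 with a minimum of 10 UMIs per gene, 38 with 50, 47 without cells over 20000 UMIs, 46 in cells of 3000 to 12000 UMIs and 1 in cells free of 11 markers of other types. The 77 lower genes became 39 with 50 UMIs per gene, 47 without dividing cells, 23 without cells over 20000 UMIs, 25 in cells of 3000 to 12000 UMIs, 8 without the 11 markers and 3 after thinning. The 1021 genes higher in cmExoaCD11b became 584 with 50 UMIs per gene, 490 without dividing cells, 479 without cells over 20000 UMIs, 381 in cells of 3000 to 12000 UMIs, 17 without the 11 markers and 2 after thinning. The 469 lower genes became 738 with 10 UMIs per gene, 158 with 50, 229 without dividing cells, 197 without cells over 20000 UMIs, 137 in cells of 3000 to 12000 UMIs, 58 without the 11 markers and 7 after thinning. Fewer genes pass the filter where cells are left out, and thinning and the 11 markers leave 4 and 3 or 1 and 2 receptor-positive cells in PBS and cmExoaCD11b, so no single gene was compared there. The receptor-positive share of CD8 T cells was 17.5% and 12.1% with at least 3 receptor UMIs, 4.396% and 1.51% when gate and rule were both applied after thinning, and in PBS 14.3% without the 11 markers.

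Among values at least 2-fold apart, directions turned for the following, and the causes were not tested. For receptor-positive over other cells of PBS, Gzmb became 0.821 without cells over 20000 UMIs and 0.915 in cells of 3000 to 12000 UMIs. Ccr7 became 1.08 without doublets, 1.09 with cells weighted equally, 2.65 without cells over 20000 UMIs and 2.48 in cells of 3000 to 12000 UMIs, and Jchain 1.47 with free RNA subtracted. For the treatment in receptor-positive cells, values without cells over 20000 UMIs were 0.977 for Prtn3, 1.88 for Gzmc, 4.01 for Tnfsf4 and 1.07 for Serpine2. In cells of 3000 to 12000 UMIs they were 0.340 for Prtn3, 0.212 for Saa3, 4.25 for Gzmc and 4.25 for Tnfsf4. Without dividing cells they were 0.902 for Elane, 2.58 for Tnfsf4 and 1.16 for Xcl1, and without mixed cells Saa3 was 0.721. Values under 2-fold also passed 1: of 12 alternatives for receptor-positive over other cells, Il7r in PBS did under 4 (highest 1.445), Gzmk in PBS under 5 (1.26), Mki67 in PBS under 2 (1.43), Nr4a2 in cmExoaCD11b under 6 (1.17), Ccl4 under 6 (1.36) and Ifng under 2 (lowest 0.651). The alternatives with 1% mixed cells, cells over 20000 UMIs and cells of 3000 to 12000 UMIs were chosen after seeing the data. Of the values for single genes under all alternatives, 1283 moved by less than their counting interval, 270 moved further and 19 that were at least 2-fold apart turned. Tests of depth stop at 1000 UMIs per cell, where a gene at a few CPM has too few UMIs to compare.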
